A study of Mus musculus with 32 samples.

Results

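The late response of ATM-deficient mouse B cells to B cell receptor cross-linking was read from 1 array of splenic B cells cultured for 24 h with anti-IgM, set against 3 arrays of untreated cells of the same genotype. These 4 arrays were chosen by their labels, out of 32 arrays in the series. The 24 h group held B cells from the spleens of ATMKO.CD3epsilonKO mice, deficient for ATM, a kinase of the DNA damage response, and for CD3 epsilon, a chain of the T cell receptor complex, stimulated in culture with 15 ug/ml goat antibody to mouse IgM. The untreated group held B cells of the same strain without anti-IgM, and the labels give no time in culture for them. For the course in time, the same cells after 3 h (1 array) and 6 h (2 arrays) of anti-IgM were used, and, as a check in a second genotype, ATMWT.CD3epsilonKO B cells that kept ATM, after 6 h of anti-IgM (1 array) and untreated (1 array). Every group here thus lacks CD3 epsilon. The ages of the mice, how the B cells were purified and whether animals were pooled are not given in the sources used here. The series calls most of the ATMKO B cell arrays technical repeats, so the spread between the untreated arrays measures the assay and not the animals.

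The B cell receptor is a surface immunoglobulin that signals through the CD79A and CD79B chains, the kinases SYK and BTK, calcium, ERK and PI3 kinase. Anti-IgM cross-links it. Within the first hours this is known to switch on immediate early transcription factors such as those of the FOS, EGR and NR4A families, to raise MYC, and to start cell growth with ribosome, lipid and glucose metabolism. Later, with no help from T cells, cells may enter the cell cycle, lose the response or die.

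Each array compared the sample, labelled with Cy5, with a common RNA pool, labelled with Cy3, on 62976 spots, and a value below is the log2 ratio of sample over pool after background correction and loess normalisation. A ratio of 0 means the level of the pool, which itself mixed resting and stimulated B cells, tumours and germinal centre B cells. The share of spots well above background in the sample channel was 55.2% on the 24 h array, against 56.6% to 60.7% on the untreated arrays, and none was saturated. Untreated repeat 1 stood apart: across genes it correlated with repeats 2 and 3 at 0.779 and 0.788, whereas those 2 correlated with each other at 0.971, and 1.57% of genes lay over 1 log2 unit away from the mean of repeats 2 and 3 on it. The median SD of a gene over the 3 untreated arrays was 0.10. The 24 h array shared its slide with both ATMWT arrays and with no untreated ATMKO array, so for the main comparison slide and treatment cannot be told apart. The ATMWT untreated array gives the value within the slide, but there the genotype differs as well, and it is given where it ends a call, turns a direction or lies far from the untreated ATMKO arrays.

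The knocked-out gene was looked at first. Atm had a ratio of -0.58 on the 24 h array, against -0.24, -0.41 and -0.36 on the untreated ATMKO arrays and 0.42 on the untreated ATMWT array. All ATMKO arrays were below both ATMWT arrays for this probe, which reads the RNA and need not lie in the deleted part. Cd3e, the other gene named in both strains, gave signal above background and its probe need not lie in the deleted part either, at -0.38 on the 24 h array against 0.59, 0.93 and 0.84 on the untreated arrays. Of 10 genes that mark B cells, all 10 were well above background on the 24 h array, with ratios from -1.80 for the inhibitory receptor Cd22 to 1.14 for the low-affinity IgE receptor Fcer2a.

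The first question was which genes stood outside the untreated repeats after 24 h. A gene was called when the 24 h array lay at least 2-fold (1 log2 unit) beyond every untreated array and was well above background where it was higher. Of 22956 gene names tested, 688 (3.00%) were called higher and 649 (2.83%) were called lower, and the median difference of all names was -0.03. With 1 stimulated array this is a description and carries no test. Without untreated repeat 1 the counts were 826 and 927. When the ATMWT untreated array had to be passed as well, 537 (2.34%) remained higher and 347 (1.51%) remained lower.

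A test across genes came from a limma fit of 6 samples, in which repeats of a sample were averaged and time and genotype were terms. It has 1 residual degree of freedom, which comes from whether the genotypes differ alike untreated and at 6 h. The 3 h and 24 h samples add nothing to that spread, and the lone 24 h array is taken to vary like the others. In it 1076 genes (4.69%) rose and 939 (4.09%) fell at 24 h against untreated cells at a Benjamini-Hochberg adjusted p under 0.05. The count of genes that fell was 500 without untreated repeat 2, 620 without untreated repeat 3 and 595 without 6 h repeat 2. Of the genes called by the 2-fold rule, 623 of 688 higher and 418 of 649 lower ones also passed. All adjusted p-values below are from this fit, and "rose" and "fell" are used only for genes that passed it. With the log ratios as deposited, before any further correction, the same fit called 0 genes in either direction and its lowest adjusted p was 0.0593, although 2478 genes higher and 3225 lower had an unadjusted p under 0.05.

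The 12 named genes that stood highest above untreated cells included 2 glycolytic enzymes, 3 mitochondrial proteins and Ddit4, an inhibitor of mTORC1 signalling. Since the RNA came from bulk cells, fewer cells of a type and less RNA per cell cannot be told apart, here and below. Aldoc, a fructose-bisphosphate aldolase (probe at mm9 chr11:78140198-78140257, plus strand), had a ratio of 1.95 on the 24 h array, against -3.02, -2.82 and -2.93 on the untreated arrays. That is a 29.2-fold higher level with an SD of only 0.10 between the untreated repeats, and the rise passed the test (log2 change 4.88 ± 0.15 SE, limma adjusted p = 0.00249). The ATMWT untreated array, at -3.14, stood with the untreated ATMKO arrays.

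**Figure D1:**
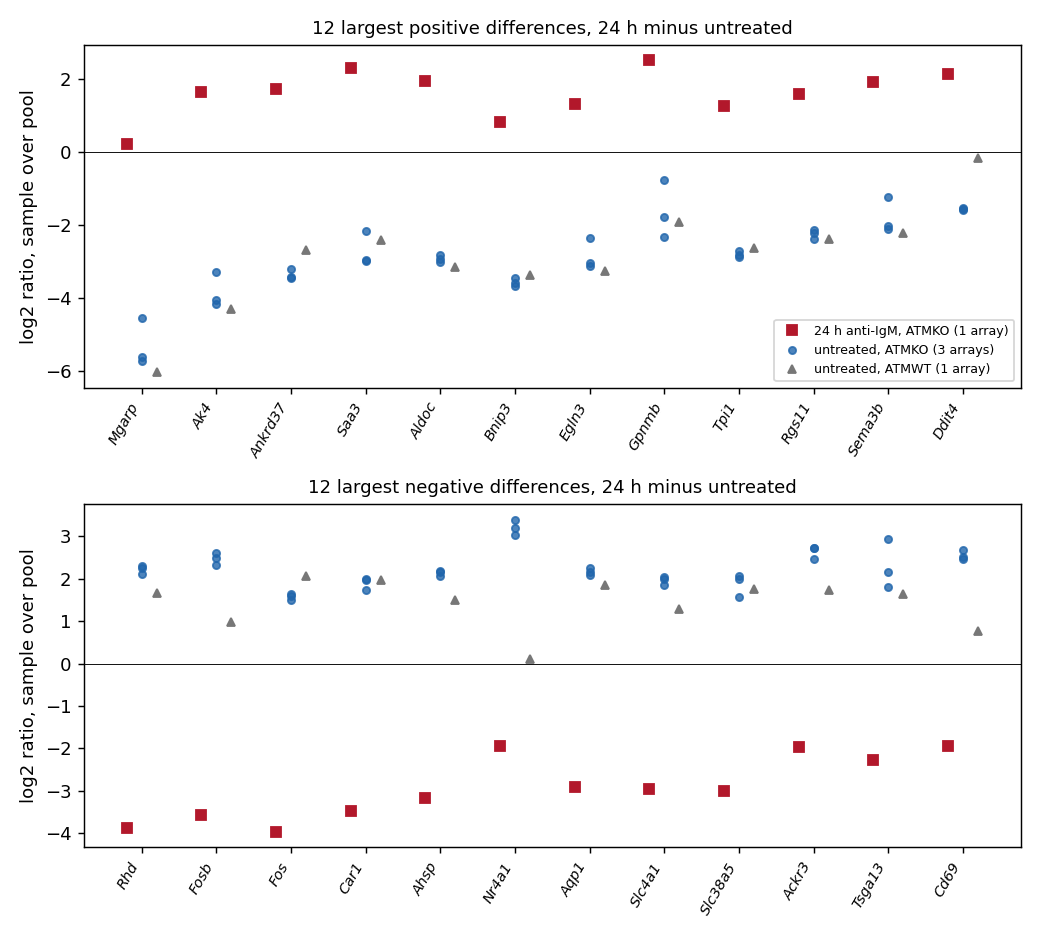
Log2 ratio of sample over pool (vertical axis) for the 12 named genes with the largest positive and the 12 with the largest negative difference between the 24 h array and the mean of the untreated arrays, in ATMKO B cells, with the ATMWT untreated array beside them. Each point is 1 array. The 24 h point lies apart from all untreated points for each of the 24 genes, by choice of these genes, and for Nr4a1 the ATMWT untreated array, at 0.11, lies well below the untreated ATMKO arrays.

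Other genes among these 12 had the same pattern. Bnip3, a mitochondrial protein that promotes removal of mitochondria, stood at 0.84 on the 24 h array, against -3.67, -3.44 and -3.60 on untreated arrays. Egln3, a prolyl hydroxylase that acts on the alpha subunits of hypoxia-inducible factors, stood at 1.31 against -2.36, -3.04 and -3.11. Ankrd37, an ankyrin repeat protein, stood at 1.74 against -3.21, -3.46 and -3.43. All 3 rose, with log2 changes of 4.37 ± 0.15, 4.31 ± 0.24 and 4.96 ± 0.23 (SE, limma adjusted p from 0.00281 to 0.00411).

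Ak4, a mitochondrial adenylate kinase, had a ratio of 1.66 on the 24 h array, against -3.29, -4.15 and -4.05 untreated. A second, dimmer probe of Ak4 differed by only 0.20, so the size of its change is uncertain. Mgarp, a mitochondrial protein, had a ratio of 0.22 at 24 h, against -4.53, -5.73 and -5.63 on untreated arrays, on none of which it was well above background, and rose (adjusted p = 0.00323). Gpnmb, a transmembrane glycoprotein best known from macrophages and melanocytes, stood at 2.52, against -0.77, -2.34 and -1.79 on untreated arrays, again with none of these well above background, and rose (adjusted p = 0.00323). For these 2 genes the size of the change has no firm value. Saa3, an acute phase serum amyloid A protein, stood at 2.31 against -2.15, -2.95 and -2.98, and the ATMWT untreated array was at -2.40. Ddit4 rose as well, at 2.14 against -1.56, -1.57 and -1.54, although the ATMWT untreated array was higher, at -0.16 (log2 change 3.30 ± 0.49 SE, adjusted p = 0.0253).

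Glycolysis genes had the largest positive median difference of the 34 lists examined. Of 19 members, all 19 measured, 15 were called higher and none lower, against 3.00% and 2.83% of all names. The median difference was 2.37 from untreated ATMKO cells and 2.56 from the untreated ATMWT array on the same slide, where the medians of all names were -0.03 and -0.03. In the limma fit 16 of the 19 rose and none fell.

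The glycolytic steps were covered from uptake to lactate export. Slc2a1, the glucose transporter GLUT1, stood at 1.79 on the 24 h array, against -0.21, 0.08 and 0.09 on untreated arrays. Hk2, the hexokinase that traps glucose in the cell, stood at 0.34 against -1.49, -1.62 and -1.61. Both rose (adjusted p = 0.0317 and 0.0142), although Slc2a1 was lower in the ATMWT untreated array (-0.92) than in any ATMKO one. Pfkp, a phosphofructokinase, stood at 0.56 against -2.06, -2.34 and -2.30, with a second probe that differed by 0.94.

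In the middle of the pathway, Tpi1, triosephosphate isomerase, had the largest difference of the list. Its ratio was 1.26 on the 24 h array, against -2.71, -2.83 and -2.88 on untreated arrays, a 16.7-fold higher level (log2 change 4.0 ± 0.17 SE, adjusted p = 0.00303). Its 2 probes differed from untreated cells by 3.50 and 4.06. Pgk1, phosphoglycerate kinase, stood at 1.34 against -2.20, -2.05 and -2.21. The accession of its probe belongs to Pgk1 on the X chromosome, but the array annotation places the probe on mm9 chr3, so signal from a related sequence cannot be told apart.

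At the end of the pathway, Ldha, the lactate dehydrogenase subunit that turns pyruvate into lactate, stood at 1.17 on the 24 h array, against -1.46, -1.28 and -1.43 untreated. Slc16a3, a transporter that exports lactate, stood at 1.55 against -1.99, -1.84 and -1.90. Both rose, with log2 changes of 2.56 ± 0.15 and 3.71 ± 0.34 (SE, adjusted p = 0.00411 and 0.00841). For each of the 15 called members, the 24 h array was above every untreated array of both genotypes by at least 1 log2 unit.

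The 4 members that were not called were paralogs for the same steps. Slc2a3, the glucose transporter GLUT3, had a log2 change of 0.75 ± 0.15 and passed the test (adjusted p = 0.046). Hk1, Pfkm and the lactate transporter Slc16a1 differed by 0.19, 0.48 and 0.07 and did not pass (adjusted p = 0.389, 0.121 and 0.747), although another probe of Hk1 differed by 1.12.

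**Figure D2:**
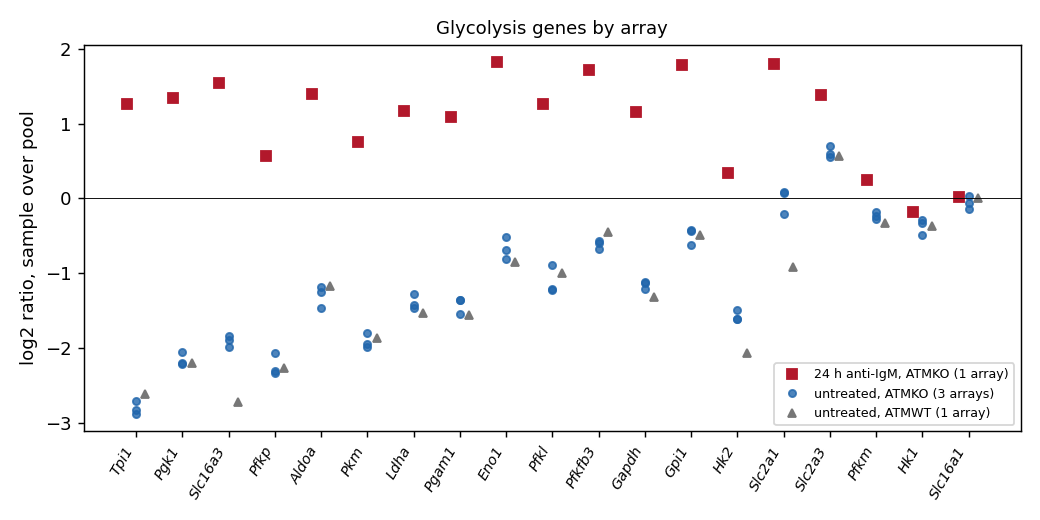
Log2 ratio of sample over pool (vertical axis) for the 19 glycolysis genes, ordered by difference, with 1 point for each array of the 24 h, untreated ATMKO and untreated ATMWT groups. The 24 h array lies above all untreated arrays for 15 genes by at least 1 log2 unit, and Hk1 and Slc16a1 at the right lie within 0.20 of the mean of the untreated ATMKO arrays.

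To place these genes in time, the 6 h arrays were set beside them. At 3 h the median difference of the glycolysis list from untreated cells was -0.41, at 6 h 0.94 and at 24 h 2.37, all 3 against the same untreated arrays. Compared directly in the same fit, 17 of 19 members were higher at 24 h than at 6 h and none was lower, where 11.9% and 8.79% of all genes were. Aldoc, outside the list, was at -2.65 and -2.63 on the 6 h arrays, close to untreated cells, and Ankrd37 at -0.88 and -0.87 lay between untreated and 24 h.

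Promoters of the glycolysis list and of genes with the largest differences are shown because the short sequence ACGTG was found in these sets more often than in all promoters, a comparison made without a test. These letters form the core of sites that hypoxia-inducible factors are known to bind, and they are also inside CACGTG, the E-box that MYC, MAX and related factors are known to bind. In the RefSeq promoter table of build GRCm38.p6, which gives 250 bases before and 50 after a transcription start, 18 of the 19 glycolysis genes had an entry and 13 of these (72.2%) had ACGTG on either strand in at least 1 start, against 21.8% of all 27025 genes. Of the 12 genes with the largest positive differences, 10 had an entry and 7 had a match. The match did not follow the calls: 10 of 15 called glycolysis genes had it, and so did all 3 uncalled ones with an entry (Hk1, Pfkm and Slc16a1). Genes differ in how many starts they have and in base composition. By single start, 55.2% of 29 windows of the glycolysis list held it, against 19.6% of 32851. In the sequences below, capitals mark ACGTG or its reverse complement CACGT, and the E-box CACGTG reads as a match on both strands.
Aldoc, chr11:78322823-78323122, plus strand: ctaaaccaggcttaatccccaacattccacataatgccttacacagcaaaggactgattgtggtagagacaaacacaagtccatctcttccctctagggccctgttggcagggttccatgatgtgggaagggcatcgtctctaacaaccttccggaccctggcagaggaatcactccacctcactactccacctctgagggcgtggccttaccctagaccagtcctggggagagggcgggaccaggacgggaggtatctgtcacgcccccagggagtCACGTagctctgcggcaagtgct
Egln3, chr12:54203825-54204124, minus strand: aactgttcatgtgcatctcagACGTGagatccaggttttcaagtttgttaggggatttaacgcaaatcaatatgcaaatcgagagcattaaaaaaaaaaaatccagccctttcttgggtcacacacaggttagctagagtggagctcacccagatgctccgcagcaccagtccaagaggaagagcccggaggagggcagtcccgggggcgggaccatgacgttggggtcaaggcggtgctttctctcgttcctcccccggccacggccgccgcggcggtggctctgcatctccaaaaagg
Ankrd37, chr8:45999801-46000100, minus strand: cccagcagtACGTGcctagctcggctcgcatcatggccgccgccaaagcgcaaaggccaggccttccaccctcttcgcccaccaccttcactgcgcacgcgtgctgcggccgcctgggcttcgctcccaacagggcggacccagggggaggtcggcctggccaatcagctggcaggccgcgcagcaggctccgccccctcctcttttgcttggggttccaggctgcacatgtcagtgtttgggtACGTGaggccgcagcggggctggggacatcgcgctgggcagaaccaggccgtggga
Pgk1, chrX:106186850-106187149, plus strand: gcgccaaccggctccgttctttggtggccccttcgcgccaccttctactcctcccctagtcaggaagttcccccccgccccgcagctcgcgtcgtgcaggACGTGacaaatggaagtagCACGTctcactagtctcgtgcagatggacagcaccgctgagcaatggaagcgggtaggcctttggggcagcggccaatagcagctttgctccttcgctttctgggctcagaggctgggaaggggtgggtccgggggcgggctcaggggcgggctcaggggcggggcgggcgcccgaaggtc
Ldha, chr7:46845554-46845853, plus strand: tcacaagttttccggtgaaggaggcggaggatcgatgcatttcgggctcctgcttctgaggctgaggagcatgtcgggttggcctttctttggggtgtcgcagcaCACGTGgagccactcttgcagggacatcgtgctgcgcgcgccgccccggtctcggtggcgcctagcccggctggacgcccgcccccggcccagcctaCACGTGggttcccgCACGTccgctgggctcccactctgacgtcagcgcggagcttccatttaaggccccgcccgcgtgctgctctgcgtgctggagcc
Tpi1, chr6:124814109-124814408, minus strand: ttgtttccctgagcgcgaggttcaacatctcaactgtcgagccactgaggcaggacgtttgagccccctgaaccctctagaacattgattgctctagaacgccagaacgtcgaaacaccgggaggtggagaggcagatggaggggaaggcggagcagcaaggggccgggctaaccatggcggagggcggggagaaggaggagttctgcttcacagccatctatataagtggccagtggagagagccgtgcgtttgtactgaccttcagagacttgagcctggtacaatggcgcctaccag
The Aldoc and Egln3 windows shown each hold 1 match and the Ankrd37 window holds 2. The Pgk1 window holds a match on each strand, and the Ldha window shown holds 2 E-boxes and 1 further match. Aldoc and Ldha each have another start, not shown, whose window holds no match. Tpi1, the list member with the largest difference, has none in its window.

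Cholesterol synthesis genes were also above untreated cells at 24 h, but lower than at 6 h. Of 24 members measured, 8 were called higher and none lower, against 3.00% and 2.83% of all names, and 6 stayed higher with the ATMWT untreated array added. The median difference was 0.91 in ATMKO cells and 0.86 from the ATMWT untreated array. The limma fit called 11 higher and none lower, against 4.69% and 4.09% of all genes. Against 6 h, 14 of the 24 fell and none rose, where 8.79% and 11.9% of all genes did.

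Sqle, squalene epoxidase, stood at -1.16 at 24 h, against 0.40 and 0.39 at 6 h and against -2.49, -2.57 and -2.49 untreated. Idi1, an isomerase of the isoprenoid pathway, stood at -1.01 at 24 h, against 0.70 and 0.82 at 6 h and -2.48, -2.47 and -2.37 untreated. Both were thus above untreated cells and below 6 h, and both differences passed for each gene (adjusted p from 0.00927 to 0.0231).

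**Figure D3:**
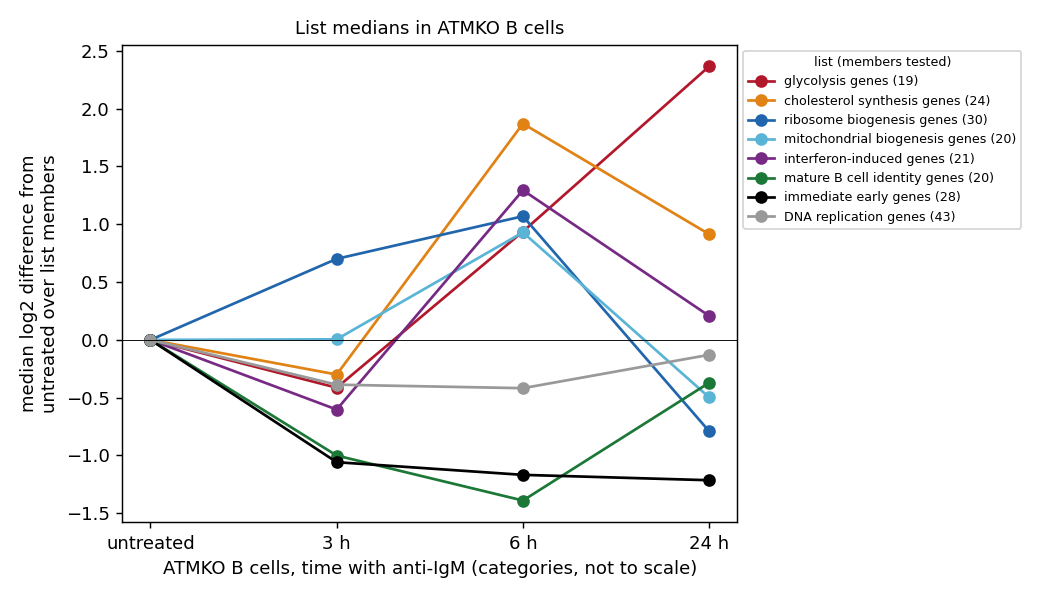
Median log2 difference from untreated ATMKO cells (vertical axis) over the members of 8 gene lists, for untreated cells and after 3, 6 and 24 h of anti-IgM (horizontal axis, not to scale). Each point is a list's median, and all times share the same untreated arrays. Glycolysis genes have their highest median at 24 h (2.37), while ribosome biogenesis genes are at 1.07 at 6 h and -0.79 at 24 h.

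Ribosome biogenesis genes had the lowest median difference between 24 h and 6 h of the 34 lists. All 30 members measured were lower at 24 h than at 6 h and passed the test for that difference, where 8.79% of all genes did. The median difference between the 2 times was -1.92, and it was -1.99 when the 24 h array was set against the ATMWT 6 h array on the same slide. Against untreated ATMKO cells the median was 0.70 at 3 h, 1.07 at 6 h and -0.79 at 24 h. At 24 h, 10 of the 30 members were called lower than untreated cells and none higher, and 12 fell in the limma fit.

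Ddx21, an RNA helicase of the nucleolus, stood at -1.51 on the 24 h array, against 0.53 and 0.92 at 6 h and -0.10, 0.17 and 0.20 in untreated cells. Nop56, a core protein of the box C/D ribonucleoproteins that methylate ribosomal RNA, stood at -1.40, against 0.45 and 0.71 at 6 h and -0.17, 0.05 and -0.01 untreated. Both fell against untreated cells (adjusted p = 0.0388 and 0.0252) and against 6 h (adjusted p = 0.00808 and 0.00723). Ddx21 was only 0.80 below the ATMWT untreated array, at -0.71, and its test against untreated cells was lost in 6 of 10 alternatives (highest adjusted p = 0.144). The nucleolar GTPase Gnl3 was called lower, but its adjusted p was 0.0879 and the ATMWT untreated array was at -0.65. Npm1, the nucleolar chaperone nucleophosmin, was at -0.36 at 24 h against -0.31, -0.40 and -0.55 untreated, so the groups overlapped, and it was lower than at 6 h (log2 change -1.19, adjusted p = 0.0115). The count of 10 depends on the reference: with the ATMWT untreated array added it was 5, and with the sample channel alone it was 4.

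**Figure D4:**
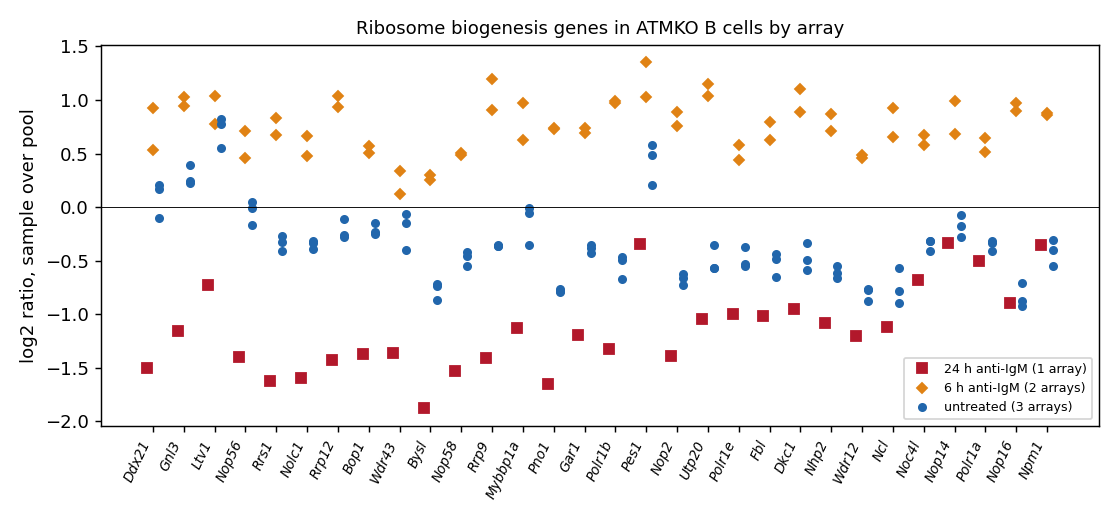
Log2 ratio of sample over pool (vertical axis) for the 30 ribosome biogenesis genes in ATMKO B cells, 1 point for each array at 24 h, at 6 h and untreated. The 24 h point lies below both 6 h points for all 30 genes, and at the right end, at Npm1, it lies within the untreated arrays.

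Other growth genes were also mostly lower at 24 h than at 6 h, but their lists did not share the rise at 3 h. The median difference from untreated cells at 3 h was 0.005 for mitochondrial biogenesis genes. It was -0.20 for nucleotide and one-carbon synthesis genes, against 0.70 for ribosome biogenesis genes. Of 20 mitochondrial biogenesis genes, 17 fell from 6 h to 24 h and none rose, where 8.79% and 11.9% of all genes did. Of these 20, 2 were called lower than untreated cells and none higher, against 2.83% and 3.00% of all names. They were Timm10, a chaperone of import into the inner membrane, and Cycs, cytochrome c. Only Timm10 stayed so with the ATMWT untreated array added. Timm10 stood at -1.36 at 24 h, against 1.05 and 1.13 at 6 h and -0.05, 0.09 and 0.08 untreated. Of 26 nucleotide and one-carbon synthesis genes, 16 fell from 6 h and 2 rose, and the CTP synthase Ctps was at -1.93 against 0.38 and 0.54 at 6 h. Compared with untreated cells, 1 of the 26 was called higher and 2 lower, against 3.00% and 2.83% of all names. The higher one was Mthfd1l, a mitochondrial folate enzyme, at 0.69 against -0.66, -0.59 and -0.70. Outside these lists, Trmt61a, a tRNA methyltransferase, had 1 of the 5 lowest differences from 6 h among called genes with a name, at -1.79 against 1.23 and 1.46.

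Myc, the transcription factor that drives growth genes, was well below every other splenic B cell array at 24 h. Its ratio was -1.72, against 2.02, 1.94 and 1.99 in untreated ATMKO cells and 0.44 in untreated ATMWT cells. At 3 h it was 0.48 and at 6 h 0.62 and 0.58. The fall passed the test against untreated cells (log2 change -3.31 ± 0.49 SE, adjusted p = 0.0263) and against 6 h (log2 change -2.72, adjusted p = 0.0232). Of the 10 genes of the MYC and MAX network, only Myc and Mnt, a MAX partner that represses MYC targets, were called lower. Mnt was at -0.45 against 1.02, 1.00 and 0.96, with the ATMWT untreated array at 0.18, and missed the test (adjusted p = 0.0739).

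Immediate early genes, which receptor signals switch on within minutes, were mostly below untreated cells at 24 h. Of 28 members measured, 16 were called lower and 2 higher, against 2.83% and 3.00% of all names, with a median difference of -1.21. In the limma fit 12 fell and 2 rose. The untreated ATMKO arrays were high for many of these genes, and against the ATMWT untreated array the median was -0.81. When that array had to be passed too, 10 of the 16 lower calls remained.

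Fos, a subunit of the AP-1 factor (probe at mm9 chr12:86817900-86817959, plus strand), stood at -3.96 on the 24 h array, against 1.49, 1.64 and 1.59 in untreated ATMKO cells and 2.08 in untreated ATMWT cells. Fosb, another subunit, stood at -3.56 against 2.33, 2.49 and 2.61 and 0.98. Both fell (log2 change -5.62 ± 0.18 and -5.68 ± 0.44 SE, adjusted p = 0.00249 and 0.00623). They had reached about this level by 6 h, when Fos was at -3.90 and -3.77, and the difference between 24 h and 6 h did not pass (adjusted p = 0.867 and 0.35).

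Nr4a1, an orphan nuclear receptor often used as a readout of receptor signalling in B cells, stood at -1.95 at 24 h against 3.02, 3.39 and 3.20 in untreated ATMKO cells, but against only 0.11 in untreated ATMWT cells, and its adjusted p was 0.054. Its relative Nr4a2 passed narrowly (log2 change -3.42 ± 0.66 SE, adjusted p = 0.0443), and the test was lost in 7 of 10 alternatives. Nr4a2 stood at -1.77 at 24 h against 2.11, 2.27 and 2.20 in untreated ATMKO cells, but against only -0.15 in untreated ATMWT cells. Egr1, a zinc finger factor, fell by 1.18 on the log2 scale (adjusted p = 0.0328). The 2 exceptions were Ier3, an early response gene linked to survival, and Nab2, a corepressor of EGR factors. Ier3 stood at 1.93 against 0.07, -0.38 and -0.03, and Nab2 at 1.05 against -0.23, -0.29 and -0.16. Both rose (adjusted p = 0.0067 and 0.014), and a second probe of Nab2 differed by 0.30.

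Surface molecules of activation split into both directions. Of 23 measured, 3 were called higher and 4 lower, against 3.00% and 2.83% of all names, and with the ATMWT untreated array added 2 and 1 remained. Il2ra, the alpha chain of the interleukin 2 receptor, stood at 0.56 on the 24 h array, against -1.64, -1.88 and -1.92 untreated. Lag3, an inhibitory receptor, stood at 1.5 against -0.43, -1.17 and -1.21. Both rose (log2 change 2.48 ± 0.19 and 2.34 ± 0.19 SE, adjusted p = 0.00623 and 0.00685). Fas, the death receptor, rose as well, with a log2 change of 1.03 ± 0.16 (adjusted p = 0.0273).

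Cd69, an early activation antigen that retains lymphocytes in tissue, stood at -1.95 at 24 h, against 2.47, 2.67 and 2.52 in untreated ATMKO cells and 0.76 in untreated ATMWT cells, and fell (adjusted p = 0.028). Cd83 was called lower than untreated ATMKO cells, at -0.22 against 1.96, 2.11 and 1.90, but it was above the ATMWT untreated array at -1.17, so its direction turned with the reference (adjusted p = 0.458). Cd86, a costimulatory ligand for T cells, was at -0.48 against 0.12, 0.18 and 0.23, and at -1.33 in untreated ATMWT cells (adjusted p = 0.758).

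Among 19 cytokines and chemokines, 2 were called higher and 3 lower, against 3.00% and 2.83% of all names. With the ATMWT untreated array added, 2 and 1 remained. Vegfa, the vascular growth factor, stood at 1.82 on the 24 h array, against -0.79, -0.93 and -0.97 untreated, and its second probe differed by 1.39. Tnfsf9, the ligand of the costimulatory receptor 4-1BB, stood at 0.11 against -2.26, -2.43 and -2.42. Both rose (adjusted p = 0.0109 and 0.00411). Lta, lymphotoxin alpha, stood at -3.15 against -1.16, -1.33 and -1.31 and fell (adjusted p = 0.0128). The chemokine Ccl4 was called lower too, at -0.89 at 24 h, against 0.55, 0.65 and 0.64 in untreated ATMKO and -1.19 in untreated ATMWT cells (adjusted p = 0.198). The third was Cxcl10, an interferon-induced chemokine, which differed by -1.33 from untreated ATMKO cells and by 0.78 from the ATMWT untreated array (adjusted p = 0.593). The regulatory cytokine Il10 was at -2.08, against -1.08, -1.32 and -1.29 in untreated ATMKO cells and -3.12 in untreated ATMWT cells, so its direction turned, and did not pass (adjusted p = 0.609).

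Of 20 factors of B cell fate, 2 were called higher and 2 lower, against 3.00% and 2.83% of all names, and with the ATMWT untreated array added 1 and 1 remained. Zbtb32, a repressor that limits plasma cell responses, stood at -0.46 at 24 h, against -2.94, -3.02 and -2.96 untreated, and it was already at -0.21 and -0.19 at 6 h. It rose against untreated cells (log2 change 2.33 ± 0.26 SE, adjusted p = 0.0136). Id3, an inhibitor of E proteins, was at 1.06 against -1.08, -1.19 and -1.06, but the ATMWT untreated array was at 0.19 and the test was missed (adjusted p = 0.0757). Irf4, which plasma cells need, was at -0.53 against 1.48, 1.46 and 1.37, but the ATMWT untreated array was also at -0.48 (adjusted p = 0.135). Prdm1, the master factor of plasma cells, was at 0.73 against 0.67, 0.91 and 0.81, so the groups overlapped, with the ATMWT untreated array at -0.36, and Bcl6, the repressor of germinal centre B cells, at -1.54 against -0.67, -0.63 and -0.63 (adjusted p = 0.105).

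Germinal centre and secretion genes were lower where they differed. Of 15 germinal centre genes, 5 were called lower and none higher, against 2.83% and 3.00% of all names. They were led by the signalling regulator Rgs13 at -6.00 against -3.63, -3.64 and -3.62 (adjusted p = 0.00479). Of 21 genes of folding and secretion in the endoplasmic reticulum, 4 were called lower and none higher, against 2.83% and 3.00% of all names. With the ATMWT untreated array added, 2 of these calls remained. Jchain, which joins secreted IgM, stood at -1.57 against 1.70, 1.73 and 1.63, and Dnajb9, a cochaperone of the endoplasmic reticulum, at -0.87 against 1.59, 1.51 and 1.55. Both fell (adjusted p = 0.00323 and 0.0135). Of 7 plasma cell markers, 3 were called lower and none higher, against 2.83% and 3.00% of all names. They were Jchain, Irf4 and Tnfrsf17, the receptor BCMA, which fell (adjusted p = 0.00479). With the ATMWT untreated array added, 2 of these calls remained. The median difference of the plasma cell list was -0.42 from untreated ATMKO cells and -0.06 from the ATMWT untreated array.

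Few cell cycle genes were called against untreated cells. Of 43 DNA replication genes measured, the licensing factor Cdt1 was called lower and none higher, a call lost against the ATMWT untreated array (-0.16), with a median difference of -0.13, and the limma fit called none of them against untreated cells. Of 31 mitosis genes none was called, and in the limma fit 1 rose and 6 fell, against 4.69% and 4.09% of all genes, with a median difference of -0.35. None of 18 G1 cyclins, kinases and inhibitors was called or passed the limma test. Ccnd2, the D-type cyclin that receptor signals induce in B cells, was at -0.91 at 24 h, against -0.27 and -0.50 at 6 h. It was at -0.78, -0.86 and -0.91 in untreated ATMKO cells and -0.99 in untreated ATMWT cells. Cdk4, its kinase partner, was at -0.69 against -0.54, -0.57 and -0.48 untreated, and was lower than at 6 h (log2 change -1.08, adjusted p = 0.013).

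The cell cycle inhibitor Cdkn1b (p27) was at 1.16, against 0.84, 0.76 and 0.89 untreated (adjusted p = 0.199), and it was higher than at 6 h (log2 change 1.23, adjusted p = 0.0102). Cdkn1a (p21), a p53 target, was at -0.82 against -1.63, -1.87 and -1.96 and did not pass (adjusted p = 0.0594), and its second probe differed by 0.20. Rrm2, the ribonucleotide reductase subunit, listed with nucleotide synthesis, stood at -2.49 against -1.41, -1.23 and -1.27 and fell (adjusted p = 0.0188). It was called lower, a call lost with the ATMWT untreated array, at -1.52, added.

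By their median, genes of the resting state were nearer to untreated cells at 24 h than at 6 h. For 20 quiescence and FOXO target genes the median difference from untreated cells was -0.27 at 3 h, -1.24 at 6 h and -0.45 at 24 h. Of the 20, 11 were higher at 24 h than at 6 h and none lower, where 11.9% and 8.79% of all genes were. Against untreated cells 5 were called lower and 1 higher, against 2.83% and 3.00% of all names. With the ATMWT untreated array added, 1 and 1 remained. Klf2, a factor that keeps lymphocytes quiescent, stood at 1.05 at 24 h, against -0.93 and -0.98 at 6 h and 1.99, 2.03 and 2.04 untreated. It was higher than at 6 h (log2 change 1.69, adjusted p = 0.0426), and its difference from untreated cells did not pass (adjusted p = 0.324). Foxo1 stood at -0.09, against -0.79 and -1.0 at 6 h and 0.77, 0.64 and 0.60 untreated. Ccng2, an atypical cyclin found in arrested cells, rose above untreated cells, at 1.90 against -0.19, -0.03 and -0.00 (adjusted p = 0.00594). Tsc22d3, a glucocorticoid-induced leucine zipper protein, stayed below, at -0.66 against 2.07, 2.21 and 2.23 (adjusted p = 0.00478). The adaptor Irs2 and the chemokine receptor Ccr7 were called lower too. They lay further below untreated ATMKO cells at 24 h (-4.17 and -2.20) than at 6 h (-2.61 and -1.69), but the ATMWT untreated array ended both calls.

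B cell identity genes showed a similar course. For 20 members the median was -1.0 at 3 h, -1.39 at 6 h and -0.37 at 24 h. Of the 20, 11 were higher at 24 h than at 6 h and none lower, where 11.9% and 8.79% of all genes were. Against untreated cells 2 were called lower and none higher, also with the ATMWT untreated array added. Ms4a1 (CD20) stood at -0.13 at 24 h, against -1.43 and -1.44 at 6 h and 0.45, 0.39 and 0.37 untreated. Pax5, the factor that maintains B cell identity, stood at -0.27, against -1.39 and -1.40 at 6 h and 0.07, -0.13 and 0.03 untreated. Both were higher than at 6 h (adjusted p = 0.00963 and 0.0119). The called members were Cr2 and Vpreb3. Cr2, the complement receptor CD21, fell to -1.07, against 2.02, 2.08 and 2.01 untreated, and was at -1.29 and -1.22 at 6 h (adjusted p = 0.00323 against untreated cells). Vpreb3 stood at -1.03 at 24 h, against 0.43, 0.70 and 0.50 untreated and -2.10 and -1.99 at 6 h.

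The receptor's own signalling genes differed little from untreated cells. Of 29 measured, 1 was called higher and none lower, against 3.00% and 2.83% of all names, and the median difference was -0.09. The called gene was the exchange factor Vav3, at 1.28 against 0.06, -0.17 and -0.16 (adjusted p = 0.0145). Btk was at 0.02 against -0.21, -0.41 and -0.34, with the ATMWT untreated array at 0.24, so its direction turned with the reference (adjusted p = 0.468). MHC class II genes were lower: 5 of 11 were called and none was higher, against 2.83% and 3.00% of all names, with a median of -0.99. With the ATMWT untreated array added, 2 of the 5 calls remained, Cd74 not among them. Cd74, the invariant chain, fell to 0.31, against 1.5, 1.76 and 1.62 (adjusted p = 0.0137). Against 6 h, 5 of the 11 were higher at 24 h and none was lower.

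In the BCL2 family, which sets the threshold of cell death, 14 of 18 members were tested. Pmaip1 (NOXA), a killer protein, was the member called, lower at -2.32 against -0.43, -0.42 and -0.30, with the ATMWT untreated array at -1.60, and it missed the test (adjusted p = 0.0551). Bcl2, which protects resting lymphocytes, fell to -0.13, against 0.98, 0.89 and 0.86 (adjusted p = 0.0302). Mcl1, another protector, was at 0.92 against 0.03, -0.07 and -0.07 and did not pass (adjusted p = 0.119), and its second probe differed by 0.19. Bcl2l1 (BCL-XL) was at -0.96 against -1.67, -1.65 and -1.68 (adjusted p = 0.051), and its second probe differed by 0.22. Bcl2l11 (BIM), another killer protein, was at -0.31, against 0.95 and 0.85 at 6 h, -0.09, -0.19 and -0.21 in untreated ATMKO cells and -1.10 in untreated ATMWT cells, and was lower than at 6 h (adjusted p = 0.0288). A second probe of Bcl2l11 differed from untreated ATMKO cells by -0.89. Of 23 p53 target genes, 1 was called higher and 4 lower, against 3.00% and 2.83% of all names, with a median difference of -0.26. Fas was the higher one, and Pmaip1, Gadd45a, Aen and Plk2 were the lower ones. Of these, Fas and the nuclease Aen passed the test (adjusted p = 0.0273 and 0.0171). With the ATMWT untreated array added, Aen alone remained called, and Gadd45a, Plk2 and Pmaip1 differed from that array by -0.37, -0.67 and -0.72.

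Interferon-induced genes had their highest median at 6 h. Their median difference from untreated cells was -0.60 at 3 h, 1.29 at 6 h and 0.21 at 24 h over 21 members. From 6 h to 24 h, 15 of them fell and 1 rose, where 8.79% and 11.9% of all genes did. Rsad2 (viperin) was the only member called lower than untreated cells, at -1.09 against 0.63, 1.08 and 1.02, and it fell (adjusted p = 0.00963). Irgm1, an immunity-related GTPase, was the only one called higher, at 0.72 against -0.32, -0.42 and -0.38, with the ATMWT untreated array at 0.14 (adjusted p = 0.0641).

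Of 19 genes of amino acid supply and of the stress factor ATF4, 3 were called higher and 1 lower, against 3.00% and 2.83% of all names. The median was -0.47. Besides Ddit4, the called members were Trib3, a pseudokinase induced by stress, at -0.90 against -2.38, -2.79 and -2.98, and Vldlr, a lipoprotein receptor, which was not well above background untreated and was at least 2.64-fold higher. Both rose (adjusted p = 0.0357 and 0.00951). Atf4 itself fell, at -0.82 against 0.62, 0.46 and 0.47 (adjusted p = 0.0396), with a second probe at -0.79.

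Markers of other cells differed between the 24 h and untreated arrays, and their part in the results above was not tested. Of 13 erythroid markers measured, 12 were called lower and all of these fell in the limma fit, 3 of them not well above background at 24 h, with a median difference of -3.26 in ATMKO cells and -2.68 from the ATMWT untreated array. The mean ratio of the list was -1.65 on the 24 h array, against 1.35 to 1.52 on the untreated arrays, and -0.01 and 0.04 at 6 h. Rhd, a blood group antigen (probe at mm9 chr4:134452018-134452077, plus strand), had the largest negative difference of all named genes, at -3.87 against 2.11, 2.30 and 2.26. Ahsp, a chaperone of free alpha globin, stood at -3.16 against 2.06, 2.17 and 2.18. The anion exchanger Slc4a1, the carbonic anhydrase Car1 and the water channel Aqp1, all abundant in red cells, differed by -4.93, -5.37 and -5.06. Slc38a5, an amino acid transporter found in red cell precursors, was not well above background at 24 h and was at least 27.6-fold lower (adjusted p = 0.00281).

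**Figure D5:**
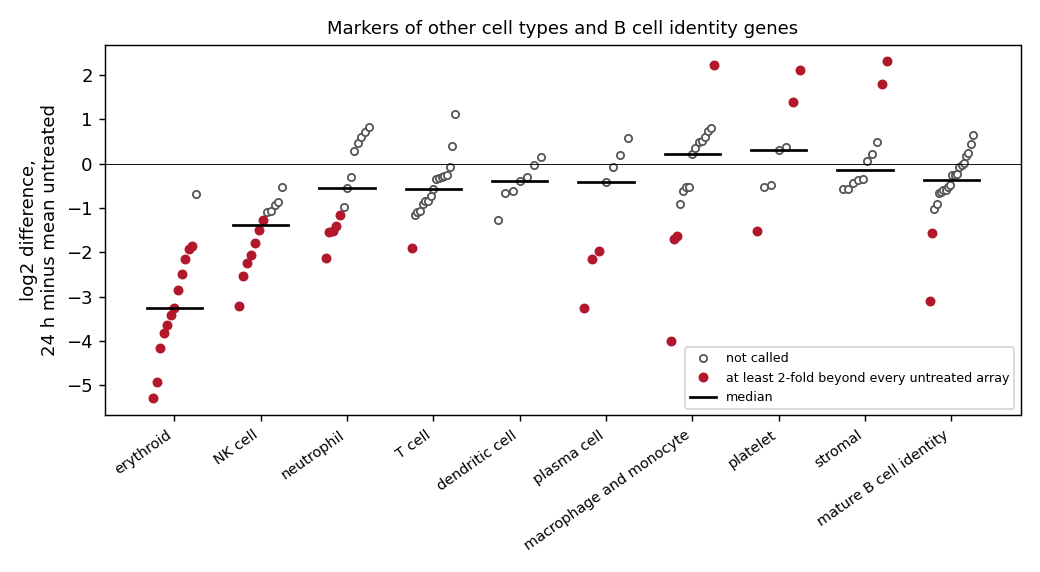
Log2 difference between the 24 h array and the mean of the untreated ATMKO arrays (vertical axis) for members of 9 marker lists of other cell types and of the B cell identity list. Filled points are at least 2-fold beyond every untreated array and bars are medians. Erythroid markers have the lowest median (-3.26), and macrophage and monocyte markers lie on both sides of 0.

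NK cell markers were lower too: 7 of 12 were called and none was higher, against 2.83% and 3.00% of all names, with a median of -1.39. Gzma, a granzyme of NK cells, stood at -1.31 against 1.66, 2.06 and 1.98 and fell (adjusted p = 0.00323). The mean ratio of the list was -0.45 on the 24 h array, against 0.97 to 1.25 on the untreated arrays. Of 13 neutrophil markers 5 were called lower and none higher, against 2.83% and 3.00% of all names, with a median difference of -0.54. These calls were led by Camp, an antimicrobial peptide of granules, at -0.45 against 1.71, 1.59 and 1.74. In the limma fit 5 neutrophil markers fell and 1 rose. Of 17 T cell markers Cd28 was called lower, a call lost with the ATMWT untreated array added, and in the limma fit 6 fell and 1 rose, with a median difference of -0.58. Of 7 dendritic cell markers none was called and 1 fell in the limma fit.

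Macrophage and monocyte markers went both ways, with 1 of 15 called higher and 3 lower, against 3.00% and 2.83% of all names. Adgre1 (F4/80), a macrophage surface receptor, stood at 2.24 on the 24 h array, against -0.22, 0.16 and 0.15 untreated, and rose (adjusted p = 0.00449). Its 2 probes differed by 2.21 and 2.25. Vcam1, an adhesion molecule of splenic macrophages and stroma, stood at -2.21 against 1.81, 1.78 and 1.78 and fell (adjusted p = 0.00392), although a second probe differed by only -0.62. The mean ratio of this list was 0.54 at 24 h, against 0.68 to 0.88 untreated.

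Of 7 platelet markers 2 were called higher and 1 lower, against 3.00% and 2.83% of all names. The platelet chemokine Pf4 rose to 2.14, against -0.18, 0.17 and 0.14, and Ppbp, another, rose to 1.45, against -0.07, 0.33 and -0.06 (adjusted p = 0.00912 and 0.0117). Of 10 stromal markers, 2 were called higher and none lower, but the median difference of the list was -0.15. Pdgfrb, a growth factor receptor of mesenchymal cells, stood at 2.32 against -0.01, 0.02 and 0.06. Sparc, a matrix protein, stood at 1.91 against -0.03, 0.17 and 0.19. Both rose (adjusted p = 0.00437 and 0.007). Outside the lists, Selenbp1, a selenium-binding protein, had 1 of the 5 highest differences from 6 h among called genes with a name, at 2.26 against -1.70 and -1.60, with -0.12, 0.09 and 0.05 untreated.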

How the data were processed

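RNA from splenic B cells was amplified with T7 polymerase, labelled with Cy5 and hybridised with a Cy3-labelled common pool, with no dye swap, per the labels' protocols. The submitters' processing notes name Agilent Feature Extraction 9.1, while the deposited scanner files name version 10.1.1.1 in their headers. The deposited files give spot intensity in both channels, and the authors' log10 ratio of red over green, per the file headers; the deposited value table matched that ratio. Here the mean and background intensity were corrected with normexp (offset 50), control and outlier spots had weight 0, and each array was loess-normalised in limma 3.58.1 (R 4.3.3). The brightest probe stood for a gene name, which gave 22956 names, and 27325 of 55681 probes matched a RefSeq gene. Names with at least 1 missing value (20) were left out.

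A gene was called when the 24 h array lay 1 log2 unit beyond all 3 untreated arrays. The test was a limma fit of 6 samples (untreated, 3 h, 6 h and 24 h ATMKO, untreated and 6 h ATMWT) with time and genotype as terms, 1 residual degree of freedom and Benjamini-Hochberg adjustment at 0.05. Nothing in the labels says that the untreated repeats came from separate animals, so p-values do not measure a spread between animals. The residual spread behind them comes only from how unalike the genotypes differ untreated and at 6 h, pooled in part over all genes. The 3 h and 24 h samples add nothing to it. The number of arrays limits the precision. The scripts were tested on simulated data.

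The members and gene lists were chosen with earlier results of these data known. Named genes were Atm and Cd3e, the 12 largest differences each way among called genes, up to 4 called members with the largest difference per list (or the single largest), a set of B cell regulators such as Myc, Cd69 and Bcl2, and the 5 highest and 5 lowest differences from 6 h. Other list members named in the text were added after their values were seen. Results for some genes are not reported here.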

Additional observations from a re-analysis of the deposited data

How the results depend on the processing

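The 24 h group had 1 array, on a slide with no untreated ATMKO array, which limits each result. No paired analysis was possible because the 24 h group has 1 array and its label carries no repeat number. With the deposited log ratios, 1130 genes were called higher and 1554 lower, and the limma fit called 0 in either direction, so no named gene's test held there. At 1.5-fold the counts were 1660 and 1842, and at 4-fold 186 and 118. With the ATMWT untreated array added, 347 genes were called lower. The limma count of genes that fell ranged from 500 to 1169 when 1 untreated repeat was left out, and was 1230 and 595 without 6 h repeat 1 and 2, an alternative chosen after seeing the data. At 4-fold, 1 cholesterol synthesis gene stayed higher and 10 immediate early genes stayed lower, and 10 of the immediate early genes also stayed lower with the ATMWT array added. Ribosome biogenesis genes called lower numbered 17 at 1.5-fold, 0 at 4-fold, 5 with the ATMWT array added, 6 against that array alone and 4 with the sample channel alone. Against the ATMWT untreated array alone the direction turned for the called genes Ahr (0.32), Ccl4 (0.30), Ccr7 (0.57), Cd83 (0.95) and Cxcl10 (0.78). Of genes not called it turned for Il10 (1.04), Cd86 (0.85), Bcl2l11 (0.79), Prdm1 (1.09), Btk (-0.23) and Ccnd2 (0.09). The causes were not tested. Other alternatives for the counts over all genes and for the glycolysis, cholesterol, immediate early and ribosome lists stayed within 1.5 times the reported count.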

Other observations

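Some genes with large differences at 24 h lie outside the groups described above. Rgs11, a regulator of G protein signalling, stood at 1.59 on the 24 h array, against -2.39, -2.13 and -2.22 on untreated arrays, and at -2.52 and -2.22 at 6 h. Sema3b, a secreted semaphorin, stood at 1.92 against -1.22, -2.02 and -2.11 untreated. Both rose (limma adjusted p = 0.00281 and 0.00291). Ackr3, a scavenging receptor for the chemokine CXCL12 that marks marginal zone B cells in mice, stood at -1.97 against 2.46, 2.73 and 2.72 and fell (adjusted p = 0.00281). It was already at -2.22 and -2.05 at 6 h.

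Of 19 NF-kappaB subunits and targets tested, 1 was called higher and 3 lower, against 3.00% and 2.83% of all names. With the ATMWT untreated array added, 1 and 0 remained. Bcl3, a nuclear IkappaB protein, stood at 0.44 at 24 h against -0.83, -1.04 and -0.95 untreated and rose (adjusted p = 0.014). Nfkbid, another nuclear IkappaB protein, stood at -1.43 against 0.63, 1.09 and 0.90 and fell (adjusted p = 0.0483), but the ATMWT untreated array was at -0.63 and the test was lost in 8 of 10 alternatives. Tnfaip3, the inhibitor A20, stood at -0.17 against 1.60, 1.78 and 1.81, but the ATMWT untreated array was at -0.16 and the test was missed (adjusted p = 0.233). Ahr, the aryl hydrocarbon receptor, stood at -1.64 against 0.97, 1.26 and 1.22, with the ATMWT untreated array at -1.97 (adjusted p = 0.196). A second probe of Ahr differed from untreated ATMKO cells by only -0.46. Irs2, an adaptor of insulin receptor signalling, stood at -2.25 against 1.73, 2.11 and 1.93, with the ATMWT untreated array at -1.61 (adjusted p = 0.0753).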
